A study of Mus musculus with 18 samples.

Results

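Regulatory T cells (Treg) were compared with CD8+ T cells from the same strain of mouse after culture with control vesicles, on 6 of the 18 arrays of the series. The members were 3 arrays whose titles name Treg and the control (WT) vesicles and 3 arrays whose titles name CD8 and the same vesicles. Both subsets came from spleens of Foxp3 YFP/cre mice, a strain in which a fluorescent reporter and Cre are made from the Foxp3 gene. Treg were sorted by that reporter and CD8+ T cells by antibody staining, so Cd8a, Cd8b1 and Cd4 transcripts are read below as a check of the sort. Cultures lasted 24 h and received IL2 at 10 ng/ml together with small extracellular vesicles (sEVs) of healthy spleens, called HCME-sEVs, for which the labels give 50 ug/ml. The methods set vesicle amounts by what a spleen contains, and the labels and methods name different RNA labelling kits. The series also holds CD4+ conventional T cells (CD4+ Tconv) and, for each subset, 3 arrays with sEVs from leukemic spleens of TCL1 mice (LME-sEVs). There were no arrays without vesicles among those used, so the comparison is between subsets and not of an effect of HCME-sEVs. Neither animals nor cultures are assigned to the replicates in the labels, so p-values here reflect no more than the spread among these arrays, which may be technical.

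Treg are CD4+ T cells that restrain immune responses. They depend on IL2 from other cells, which they bind through a high-affinity receptor and read through the transcription factor STAT5, and they carry inhibitory and co-stimulatory receptors such as CTLA4, GITR and OX40. CD8+ T cells recognize peptides on MHC class I through the CD8 coreceptor, and under the factors RUNX3, T-bet and EOMES they can arm themselves with granzymes, perforin, chemokines and receptors shared with NK cells.

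The deposited values were log2 signals of 22206 probe sets on Clariom S mouse arrays. The array medians lay at 6.68 to 6.84 for Treg and 7.24 to 7.26 for CD8+ T cells, and the upper deciles at 10.61 to 10.84 and 11.72 to 11.75. Subsets may have been normalized separately, so the 6 arrays were brought to 1 distribution by quantile normalization, and all levels below are on that log2 scale unless another is named. Quantile normalization removes any shift shared by most transcripts, and levels of different probe sets are not set against each other. Background was the 95th percentile of probe sets for olfactory, vomeronasal and trace amine receptors, at 8.05 in Treg and 7.80 in CD8+ T cells, and the mean exceeded it for 7039 and 7808 probe sets. Where a fold is given and the lower group was not above background, the fold is a bound, while log2 differences and SEs are the fitted values. The bound sets the higher group against the higher of the background and the probe set's own signal on each array. On the values as deposited Treg array 3 differed from its group: it correlated at 0.93 on average with the other Treg arrays (0.947 and 0.948 for those). It also had the narrowest deposited signal range above background, 2.59 log2 units against 3.17 to 3.67 on the other 5 arrays.

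Under HCME-sEVs 2523 probe sets, 11.4% of all, differed between Treg and CD8+ T cells by more than 1 log2 unit with an adjusted p below 0.05 (limma, Benjamini-Hochberg over all probe sets). Of these, 1213 (5.46% of all) were higher in Treg and 1310 (5.9%) were higher in CD8+ T cells, and in all 2523 the groups did not overlap. Over all probe sets the 3 Treg arrays lay above the 3 CD8+ arrays in 20.7% and below them in 17.3%. The median absolute difference of the calls was 1.69 log2 units, and 57 probe sets were more than 4 units higher in Treg and 75 more than 4 units higher in CD8+ T cells. Among 1427 receptor probe sets used for background 38 were called. The number of calls was 2539 without Treg array 3, of which 1994 were also called with it, and 1243, 1244 and 1159 without CD8+ array 1, 2 or 3. On the values as deposited the calls numbered 4468, with 11% of them higher in Treg in place of 48.1%, and the median difference of all probe sets was −0.45 in place of 0.06. Of the 2523 calls 1785 were also called as deposited, and 2060 with each array centred on its median signal above background.

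**Figure D1:**
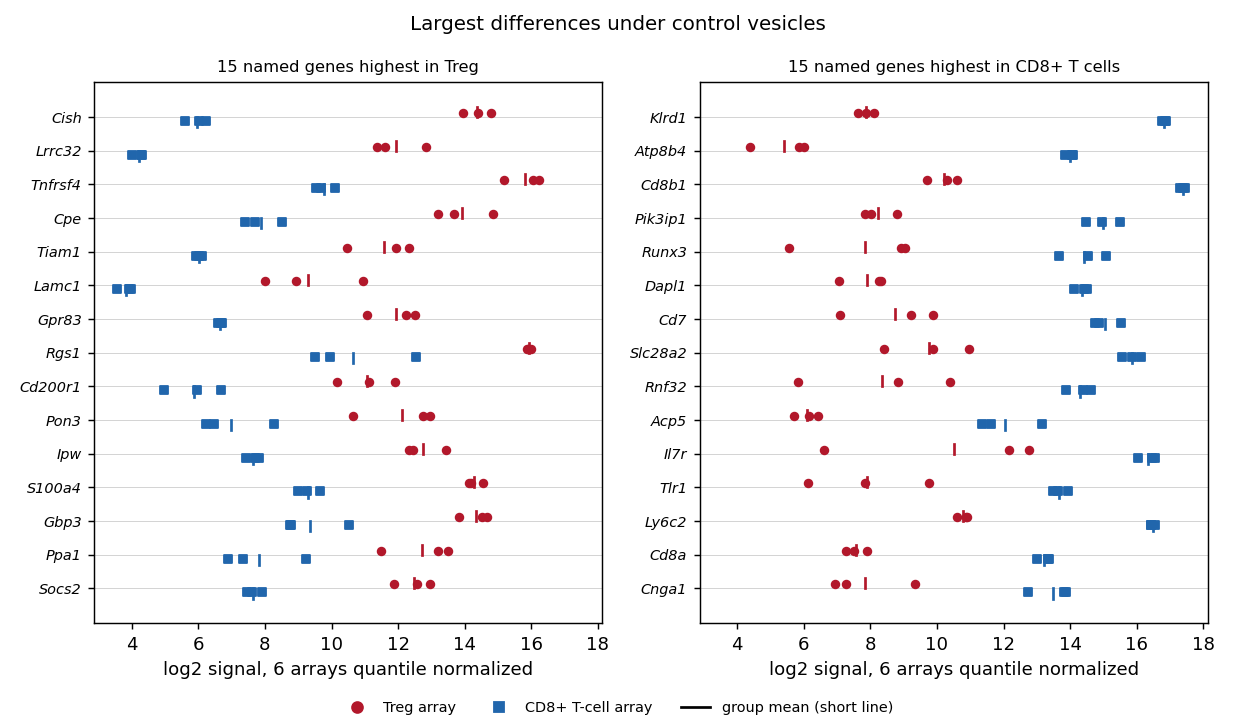
Log2 signal (x axis, 6 arrays quantile normalized) of the 15 named genes with the largest differences in each direction, left higher in Treg and right higher in CD8+ T cells. Circles are the 3 Treg arrays, squares the 3 CD8+ arrays and short lines the group means. Groups that do not overlap were a condition of the choice. Treg array 3 lies far from the other 2 for Il7r, at 6.6 against 12.17 and 12.76.

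The largest difference in favour of Treg was that of Cish, a STAT5-induced inhibitor of cytokine signalling. Its signal was 13.94, 14.39 and 14.78 in Treg against 6.01, 5.6 and 6.23 in CD8+ T cells. The groups were far apart and CD8+ T cells were below background, which gave at least 92.9-fold higher signal in Treg (log2 difference 8.42, SE 0.29, adjusted p = 0.000124). Socs2, another STAT5-induced member of the same family, stood at 12.58, 11.88 and 12.95 against 7.46, 7.60 and 7.90. This was at least 24-fold higher in Treg (4.82, SE 0.31, adjusted p = 0.000661). The region around the start of Cish is shown because it carries STAT5-type motifs. It runs from 250 bases before to 30 bases after the start, at chr9:107296409-107296688 on the + strand (RefSeq, GRCm38.p6), with capitals for TTCNNNGAA, a palindromic motif that reads the same on both strands.
Cish: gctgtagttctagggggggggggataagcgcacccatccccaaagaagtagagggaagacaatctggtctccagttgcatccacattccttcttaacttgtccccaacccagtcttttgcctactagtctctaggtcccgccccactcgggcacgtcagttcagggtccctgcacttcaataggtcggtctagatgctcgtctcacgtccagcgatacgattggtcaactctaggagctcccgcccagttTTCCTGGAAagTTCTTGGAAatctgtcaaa
TTCNNNGAA began at bases 1 and 12 counted from the start site. Of all 32851 RefSeq windows of this length, 7.83% held it, against 6.48% of 957 windows of genes called higher in Treg and 7.75% of 1226 windows of genes called higher in CD8+ T cells. The match is a description of the letters and says nothing about binding.

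Lrrc32 encodes GARP, which holds latent TGF-beta on the Treg surface. It had signals of 11.61, 12.84 and 11.38 in Treg against 4.01, 4.32 and 4.27 in CD8+ T cells, at least 17.3-fold higher in Treg (7.74, SE 0.39, adjusted p = 0.000415). Tnfrsf4, the co-stimulatory receptor OX40, was above background in both subsets. Its signals were 16.23, 16.05 and 15.19 against 9.68, 10.11 and 9.52, a 66.3-fold difference (6.05, SE 0.33, adjusted p = 0.000415). Gpr83, a G-protein-coupled receptor used as a Treg marker, stood at 12.50, 12.24 and 11.08 in Treg against 6.58, 6.72 and 6.69 in CD8+ T cells. Rgs1, a regulator of G-protein signalling, was nearly equal on the Treg arrays (15.88, 15.90 and 15.99) and scattered on the CD8+ arrays (12.53, 9.96 and 9.49). All 3 Treg arrays lay above all CD8+ arrays (mean difference 5.26, SE 0.74, adjusted p = 0.00752).

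The other 9 of the 15 genes highest in Treg had log2 differences from 4.91 to 6.04. They encode proteins of varied roles. Cpe, carboxypeptidase E, stood at 13.21, 13.68 and 14.85 against 8.51, 7.69 and 7.40. Tiam1, an exchange factor for the GTPase RAC1, stood at 11.93, 12.32 and 10.47 against 6.03, 6.12 and 5.94. Cd200r1, an inhibitory receptor better known in myeloid cells, was at 11.90, 11.14 and 10.17 in Treg against 5.96, 4.97 and 6.68 in CD8+ T cells. S100a4, a calcium-binding protein linked to cell motility, was at 14.13, 14.54 and 14.19 against 9.66, 9.27 and 8.99 (31.7-fold, adjusted p = 0.000415). Gbp3, an interferon-inducible guanylate-binding protein, was at 14.66, 14.52 and 13.82 against 10.52, 8.79 and 8.74. The remaining 4 were Lamc1, a laminin chain (at least 2.75-fold), Pon3, a paraoxonase (at least 17.7-fold), Ipw, an imprinted non-coding RNA (at least 30-fold), and Ppa1, an inorganic pyrophosphatase (log2 difference 4.91). Every call among these 15 genes was kept with each of the 6 arrays left out in turn.

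Klrd1, which encodes the CD94 chain of NKG2 receptors, had the largest difference in favour of CD8+ T cells. Its signals were 16.76, 16.87 and 16.86 in CD8+ T cells and 8.10, 7.62 and 7.87 in Treg. Treg were not above background on average, so the signal was at least 409-fold higher in CD8+ T cells (log2 difference −8.97, SE 0.21, adjusted p = 2.32e-05). Atp8b4, a phospholipid flippase subunit, was at 13.83, 14.05 and 14.09 in CD8+ T cells and 5.86, 4.37 and 6 in Treg, at least 61.1-fold higher in CD8+ T cells. Pik3ip1, an inhibitor of PI3-kinase signalling found in resting T cells, was at 15.51, 14.96 and 14.48 against 8.01, 8.79 and 7.85. That was a 109-fold difference (−6.77, SE 0.36, adjusted p = 0.000415). The Treg mean of 8.22 was just above the background of 8.05, and Treg arrays 1 and 3 were below it. Cd7, an immunoglobulin-family receptor of T and NK cells, was at 15.54, 14.75 and 14.87 against 9.89, 9.22 and 7.08. Ly6c2, a surface protein of memory CD8+ T cells and monocytes, was at 16.56, 16.42 and 16.44 against 10.90, 10.59 and 10.86, and its spread was among the smallest of these genes (−5.69, SE 0.20, adjusted p = 0.000124).

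Il7r, the receptor chain for the survival cytokine IL7, was at 16.03, 16.56 and 16.46 in CD8+ T cells against 12.17, 12.76 and 6.6 in Treg. The groups did not overlap, but Treg array 3 was far below the other Treg arrays. The difference was −5.84 (SE 1.5, adjusted p = 0.0473) with all arrays and −3.81 (adjusted p = 0.00199) without Treg array 3. Leaving out Treg array 1 or any CD8+ array ended the call of Il7r (adjusted p 0.0644 to 0.129). Rnf32, a RING-finger protein, also lost its call without CD8+ array 2 or 3 (adjusted p 0.0541 to 0.0556). The other named genes of this set kept their calls in every such fit. They were Dapl1 (at least 64.2-fold higher in CD8+ T cells), the nucleoside transporter Slc28a2 (68.8-fold), the acid phosphatase Acp5 (at least 15.8-fold), the innate receptor Tlr1 (at least 31.3-fold) and the cyclic nucleotide-gated channel Cnga1 (at least 30.5-fold), beside Cd8a, Cd8b1 and Runx3, which follow.

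The sorting markers differed in the direction of the labels. Cd8b1 was at 17.39, 17.31 and 17.44 in CD8+ T cells against 10.61, 9.71 and 10.29 in Treg, a 145-fold difference (−7.18, SE 0.27, adjusted p = 0.000156). Its Treg mean of 10.20 was above the background of 8.05. Cd8a was at 13.33, 13.35 and 12.99 against 7.89, 7.50 and 7.28, below background in Treg. Cd4 was at 10.30, 10.55 and 10.01 in Treg against 8.22, 8.31 and 8.02 in CD8+ T cells, 4.30-fold higher in Treg (2.10, SE 0.23, adjusted p = 0.00324). Its CD8+ mean of 8.19 was above the background of 7.80. Cd4 was the only 1 of 3 CD4 T-cell markers that was called, and another, Zbtb7b, was not above background in either subset. Ikzf2, which encodes the Treg factor Helios, was at 11.96, 12.07 and 11.28 in Treg against 7.41, 8.11 and 7.61 in CD8+ T cells, at least 14.4-fold higher in Treg (4.06, SE 0.30, adjusted p = 0.00100). All 6 measured Treg markers (Ikzf2, Il2ra, Ctla4, Tnfrsf18, Izumo1r and Gpr83) were called higher in Treg, with 3 to 6 called when single arrays were left out and the fewest without CD8+ array 1 or 3. Their summed level was 14.91 to 15.95 in Treg and 11.52 to 12.07 in CD8+ T cells. As 0 probe sets were named Foxp3, that gene is not analysed here. In bulk RNA, fewer cells of a type and less RNA per cell cannot be told apart.

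Most markers of B cells, neutrophils, monocytes, plasma cells and dendritic cells were not above background in either subset. Summed over 12 B-cell markers the log2 level was 10.57 to 11.44 in Treg and 10.38 to 10.59 in CD8+ T cells. Of these only Bank1 was above background, in Treg, at 9.14, 7.84 and 10.65 against 6.75, 6.88 and 7, and 0 were called. The sum of 9 neutrophil markers was 10.54 to 12.41 in Treg and 9.75 to 9.92 in CD8+ T cells, and S100a9, a neutrophil calcium-binding protein, was called higher in Treg (10.97, 9.87 and 9.24 against 7.75, 7.64 and 7.32). The S100a9 call was lost without any of the CD8+ arrays (adjusted p 0.0518 to 0.0639). Its partner S100a8 ran from 5.28 on Treg array 3 to 11.27 on Treg array 1 and was not called. Of 13 monocyte and macrophage markers only Fcgr3, an Fc receptor also found on NK cells, was above background, in CD8+ T cells (8.66, 10.07 and 9.28 against 6.34, 6.57 and 6.26 in Treg). The summed levels of 6 plasma-cell markers were 13.07 to 13.61 in Treg and 11.65 to 12.79 in CD8+ T cells, and those of 13 dendritic-cell markers were 14.55 to 15.18 and 14.41 to 14.66. In these lists 2 and 4 markers were above background in 1 subset or more. The same held for 2 of 6 erythroid, 3 of 6 platelet and 4 of 12 stromal and endothelial markers. The dendritic-cell and monocyte lists had 1 call in each direction, and the stromal list had 1 higher in Treg. The part of such cells in the differences below was not tested.

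Gene lists of 24 programs were then counted. The share of members called is read against 5.46% higher in Treg and 5.9% higher in CD8+ T cells over all probe sets, and list medians against a median of 0.06 over all. The lists were chosen with earlier results of these data known, so the shares describe the lists and are not a test of them. The list with the highest share called was that of Treg surface and suppressive genes, and it had members called in 1 direction only. Of 27 measured members 20 were called higher in Treg and 0 higher in CD8+ T cells, with a median difference of 2.59. Leaving out single arrays gave 15 to 21 calls. On the values as deposited there were 19 calls in the Treg direction and 0 in the other.

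**Figure D2:**
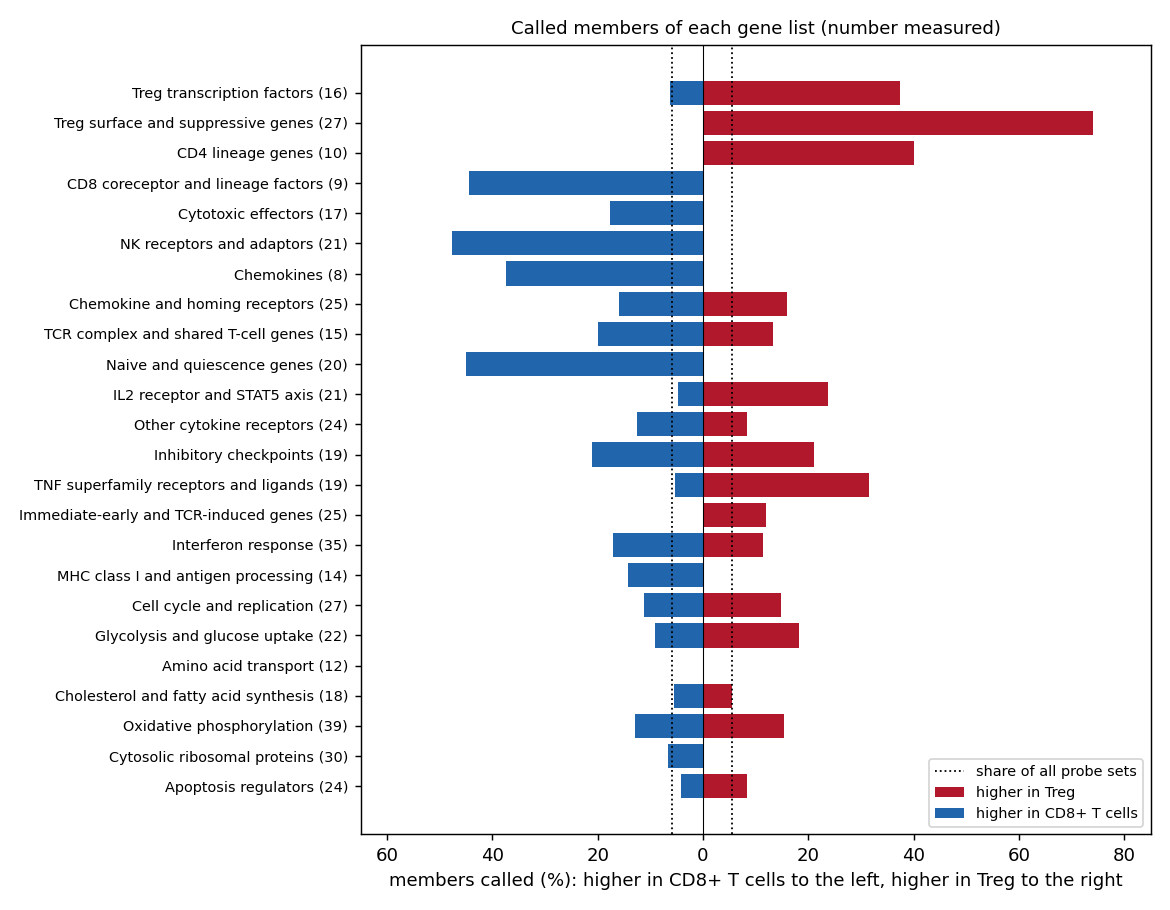
Share of each gene list's measured members (number in brackets) called higher in CD8+ T cells (bars to the left) or higher in Treg (bars to the right), in percent. Dotted lines mark the share of all probe sets, 5.9% and 5.46%; the Treg surface and suppressive genes reach furthest right (20 of 27) and the NK receptors (10 of 21), CD8 lineage genes (4 of 9) and naive genes (9 of 20) furthest left.

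Among co-stimulatory receptors of that list, Icos was at 15.84, 15.83 and 16.34 in Treg against 11.51, 12.24 and 11.72 in CD8+ T cells, 18.2-fold higher in Treg (4.18, SE 0.28, adjusted p = 0.000678). Tnfrsf18, which encodes GITR, was at 13.70, 13.80 and 12.35 against 10.28, 11.30 and 10.41. Its call ended without CD8+ array 1 or 3 (adjusted p 0.0594 to 0.0621). Izumo1r, the folate receptor FR4 of Treg, was at 14.75, 15.19 and 14.32 against 11.33, 9.95 and 10.13, 19.4-fold higher in Treg (4.28, SE 0.42, adjusted p = 0.00257). Ctla4, the inhibitory receptor by which Treg strip co-stimulatory ligands from other cells, was at 11.39, 10.98 and 8.24 in Treg and below background in CD8+ T cells at 6.84, 6.06 and 5.44. It was at least 5.17-fold higher in Treg. The fitted difference was 4.09 (SE 0.83, adjusted p = 0.0239) with all arrays and 5.18 (adjusted p = 0.00279) without Treg array 3, and the call was lost without any 1 of the other 5 arrays (adjusted p 0.0558 to 0.0855). Tigit, another inhibitory receptor, was at 8.63, 8.67 and 7.48 against 5.56, 5.30 and 5.30 (at least 1.35-fold). The guanine exchange factor Swap70 was at 10.86, 10.45 and 11.30 in Treg and below background in CD8+ T cells (6.79, 6.12 and 6.84).

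Members of the list tied to suppressive mediators were looked up after their values were seen. Tgfb1, which encodes the cytokine TGF-beta, was called higher in Treg at 13.85, 14.36 and 13.42 against 10.27, 11.23 and 11.93. Itgb8, part of an integrin that activates latent TGF-beta, was called at 8.15, 8.36 and 9.14 against 6.11, 6.19 and 5.66. Fgl2, a secreted suppressive protein, was called at 9.28, 8.84 and 9.59 against 6.22, 7.02 and 6.68. Whether the calls of Tgfb1, Itgb8 and Fgl2 held with single arrays left out was not examined. Entpd1, which encodes the ectonucleotidase CD39, was not called although the groups did not overlap (12.02, 8.79 and 8.84 against 7.04, 7.04 and 6.96, adjusted p = 0.0649). Il10, a suppressive cytokine, was not above background in either subset on average (8.04, 8.18 and 7.52 against 7.17, 7.13 and 7.15, adjusted p = 0.0765).

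**Figure D3:**
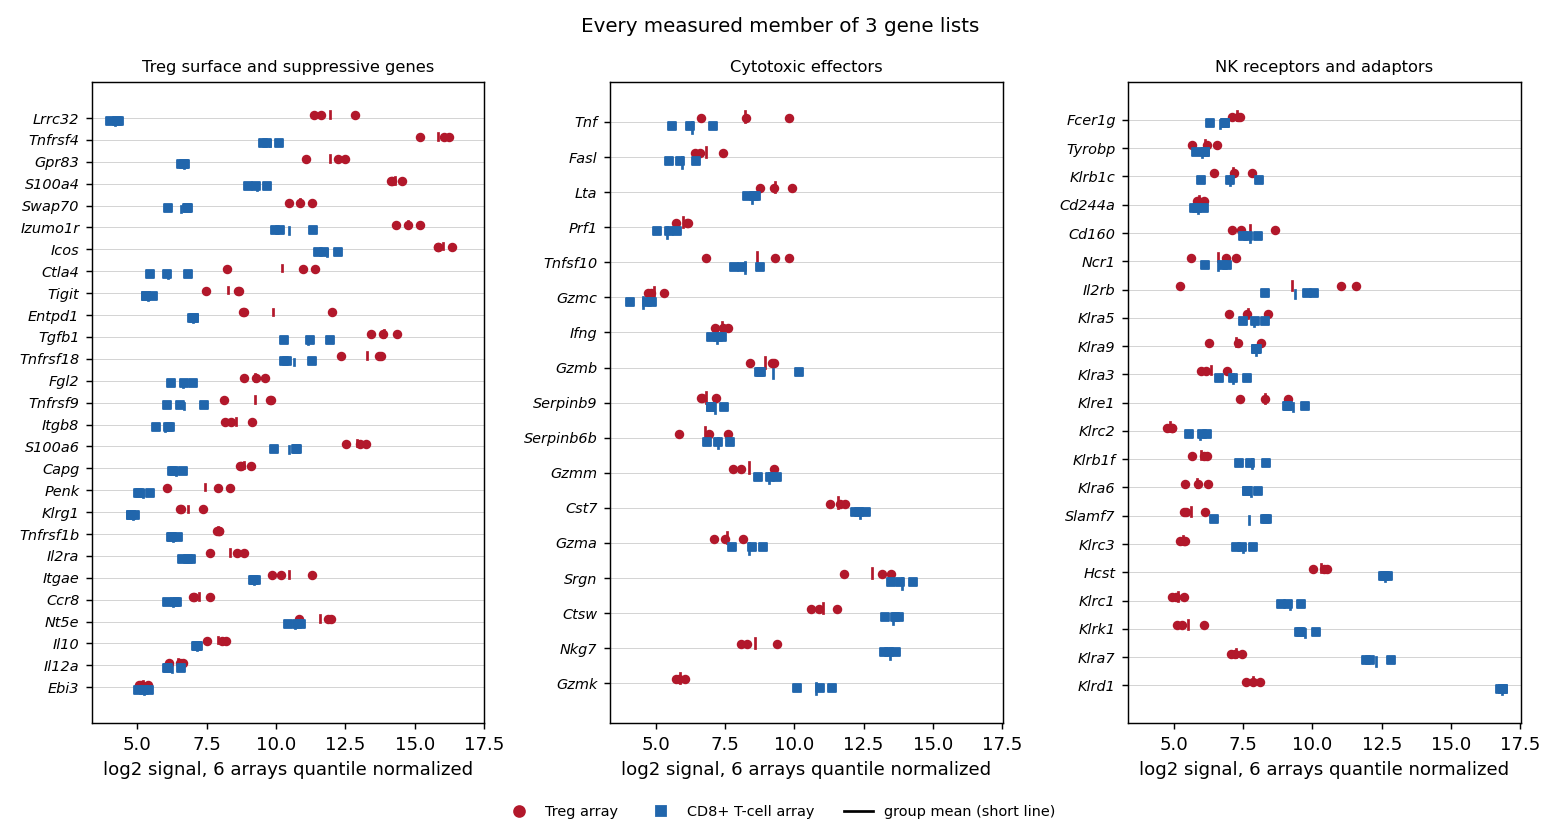
Log2 signal (x axis, 6 arrays quantile normalized) of every measured member of the Treg surface and suppressive genes, the cytotoxic effectors and the NK receptors, ordered by the difference. Circles are Treg arrays, squares CD8+ arrays and short lines group means; the Treg list splits widely for 20 of 27 members, whereas among cytotoxic effectors only Gzmk, Nkg7 and Ctsw split by a called difference.

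Transcription factors of Treg gave 6 calls higher in Treg and 1 higher in CD8+ T cells among 16 measured (median 0.73). The calls in the Treg direction were 3 to 5 with single arrays left out, and fell furthest without CD8+ array 1 or 2. As deposited there were 5 in the Treg direction and 3 in the CD8+ direction. Beside Ikzf2, Rora, a nuclear receptor of type 2 and regulatory lymphocytes, was at 12.44, 12.19 and 11.39 against 7.22, 8.51 and 7.92 (17.4-fold, difference 4.12, SE 0.41, adjusted p = 0.00266). Its CD8+ mean of 7.89 was just above the background of 7.80. Stat3 was at 11.76, 11.85 and 12.31 against 9.41, 8.96 and 9.87, 5.91-fold higher in Treg. Nfil3, a basic leucine zipper factor, was at 11.24, 11.45 and 9.47 against 7.84, 7.13 and 7.93, and lost its call without CD8+ array 1 or 2 (adjusted p 0.0514 to 0.0612). Maf was at 8, 7.75 and 8.52 against 7.04, 6.89 and 7.27 (at least 1.2-fold). The Maf call was lost with any single array left out (adjusted p 0.0512 to 0.147). Prdm1, a repressor of effector and regulatory cells, was called with neither group mean above background, a call lost without Treg array 2 or any CD8+ array (adjusted p 0.0521 to 0.103). Satb1, a genome organizer that is lowered in Treg, was the member called higher in CD8+ T cells (13.04, 13.20 and 13.54 against 11.20, 9.93 and 8.93), a call lost without CD8+ array 3 (adjusted p = 0.0513). Ikzf4, which encodes the Ikaros-family factor Eos, was at 8.02, 7.51 and 9.13 against 6.69, 7.20 and 6.84 and was not called (adjusted p = 0.0849).

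IL2 was in every culture, and the IL2 receptor and STAT5 list had 5 members of 21 called higher in Treg and 1 higher in CD8+ T cells (median 0.64). The 5 were Cish, Tnfrsf4, Socs2, Myc and Il2ra. Myc, a driver of growth, was at 12.03, 13.56 and 12.02 in Treg against 7.82, 8.64 and 8.80 in CD8+ T cells, 17.4-fold higher in Treg (4.12, SE 0.49, adjusted p = 0.00418). Il2ra, the chain that gives the receptor its high affinity, was at 8.59, 8.86 and 7.61 against 6.62, 6.95 and 6.84 (at least 1.43-fold). The Il2ra call was lost when any array but Treg array 3 was left out (adjusted p 0.0753 to 0.103). Il2rb, the signalling chain shared with the IL15 receptor, was at 11.56, 11.02 and 5.24 in Treg against 9.80, 10.05 and 8.29 in CD8+ T cells. Treg array 3 lay below every CD8+ array and the other Treg arrays above them, and the difference was −0.10 (SE 1.60, adjusted p = 0.972) with it and 1.92 (adjusted p = 0.0783) without it. Pim2, a STAT5-induced survival kinase, was called higher in CD8+ T cells at 7.94, 8.20 and 7.89 against 5.98, 5.55 and 5.68. The calls in the Treg direction were 4 to 7 when single arrays were left out, and as deposited there were 4 and 2. Socs1, Socs3, Pim1, Bcl2 and Mcl1, looked up after their values were seen, were not called.

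The list of the CD8 coreceptor and its lineage factors held 9 measured genes, of which 4 were called higher in CD8+ T cells and 0 higher in Treg in each fit with 1 array left out (median −0.77). They were Cd8a, Cd8b1, Runx3 and Eomes. Runx3, the factor that represses Cd4 and sustains Cd8 genes, was at 14.53, 15.09 and 13.66 in CD8+ T cells and 8.93, 9.04 and 5.56 in Treg. That was at least 48.8-fold higher in CD8+ T cells (−6.59, SE 0.94, adjusted p = 0.00765), and the difference was −5.39 without Treg array 3. Eomes, a T-box factor of memory CD8+ T cells and NK cells, was at 11.20, 12.26 and 11.48 against 6.17, 5.87 and 6.37 (at least 12-fold, adjusted p = 0.000476). Tbx21, which encodes T-bet, was not above background in either subset (5.86, 5.16 and 6.17 in CD8+ T cells and 5.14, 5.14 and 5.05 in Treg) and was not called. RUNX proteins bind TGTGGT, and the first of 2 RefSeq start regions of Runx3, at chr4:135120395-135120674 on the + strand, holds matches of this motif on the reverse strand, in capitals.
Runx3: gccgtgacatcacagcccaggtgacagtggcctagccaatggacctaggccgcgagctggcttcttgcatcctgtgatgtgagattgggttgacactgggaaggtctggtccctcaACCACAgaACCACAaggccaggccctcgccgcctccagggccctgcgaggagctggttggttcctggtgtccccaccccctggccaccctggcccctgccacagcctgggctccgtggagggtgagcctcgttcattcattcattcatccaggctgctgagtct
The matches began 134 and 126 bases before the start. TGTGGT or its reverse complement was in 15.6% of all windows, in 13.3% of those of genes called higher in Treg and in 13.3% of those of genes called higher in CD8+ T cells, so the shares of both sets were near that of all windows.

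Of 17 cytotoxic effector genes 3 were called higher in CD8+ T cells and 0 higher in Treg (median −0.33). The count higher in CD8+ T cells was 3 with any array left out, and 1 member was called higher in Treg without Treg array 3. As deposited 6 were called higher in CD8+ T cells and 0 higher in Treg. Gzmk, a granzyme of early memory cells, was at 10.10, 10.92 and 11.36 in CD8+ T cells and 5.83, 5.74 and 6.06 in Treg, at least 6.66-fold higher in CD8+ T cells (−4.92, SE 0.34, adjusted p = 0.000789). Nkg7, a granule membrane protein needed for exocytosis, was at 13.68, 13.24 and 13.43 against 8.31, 9.37 and 8.08, a 29.1-fold difference (−4.87, SE 0.36, adjusted p = 0.00100). Ctsw, a cathepsin of cytotoxic cells, was at 13.79, 13.65 and 13.27 against 10.91, 11.54 and 10.62. The start region of Nkg7, at chr7:43436888-43437167 on the + strand, is shown because it holds all 3 motifs searched, TTCNNNGAA, TGTGGT and the T-box motif AGGTGTGA (either strand), in capitals and with no overlap between them.
Nkg7: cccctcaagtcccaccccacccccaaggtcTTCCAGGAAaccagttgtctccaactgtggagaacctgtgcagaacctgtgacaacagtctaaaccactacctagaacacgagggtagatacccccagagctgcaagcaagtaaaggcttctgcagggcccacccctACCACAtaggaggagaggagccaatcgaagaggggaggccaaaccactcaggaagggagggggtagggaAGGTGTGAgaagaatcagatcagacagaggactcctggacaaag
They began 220, 83 and 14 bases before the start. AGGTGTGA was in 1.22% of all windows, 1.15% of windows of genes called higher in Treg and 1.06% of those of genes called higher in CD8+ T cells.

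The classical killing genes were not called on the quantile scale, and all but Gzma were looked up after their values were seen. Gzmb, granzyme B, was at 8.80, 8.74 and 10.18 in CD8+ T cells and 8.40, 9.19 and 9.26 in Treg (log2 difference −0.29, SE 0.45, adjusted p = 0.703). The groups overlapped, and the difference was 0.18 without CD8+ array 3. Prf1, perforin, was below background in both subsets, at 5.04, 5.50 and 5.76 in CD8+ T cells and 6.16, 5.73 and 6.13 in Treg. Gzma was at 7.76, 8.48 and 8.87 against 8.14, 7.11 and 7.51 (−0.79, SE 0.38, adjusted p = 0.212). On the values as deposited Gzma was called higher in CD8+ T cells (−1.47, adjusted p = 0.0333), and Gzmb differed by −1.23 without a call (adjusted p = 0.0873). Ifng, the cytokine interferon gamma, was below background in both subsets (7.24, 7.39 and 7 in CD8+ T cells and 7.15, 7.60 and 7.45 in Treg).

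NK-cell receptors and adaptors were called higher in CD8+ T cells for 10 of 21 members and higher in Treg for 0 (median −1.04), and single arrays left out gave 8 to 10 calls, and the values as deposited 13. When only probe sets above background in 1 subset or more were fitted, 10 members remained and 6 were called. Klrc3, Slamf7 and Klra6 were among the calls with neither group mean above background. Klrc1, which encodes the inhibitory NKG2A chain that pairs with CD94, was at 9.14, 8.88 and 9.61 in CD8+ T cells and 5.10, 4.96 and 5.39 in Treg (at least 2.22-fold higher in CD8+ T cells, adjusted p = 0.000660). Klrk1, the activating receptor NKG2D, was at 9.58, 9.52 and 10.13 against 5.29, 6.10 and 5.13, and its signalling adaptor Hcst (DAP10) was at 12.56, 12.73 and 12.62 against 10.42, 10.54 and 10.03. Klra7, a Ly49 receptor for MHC class I, was at 11.94, 12.09 and 12.82 against 7.20, 7.06 and 7.46, at least 18.7-fold higher in CD8+ T cells (−5.04, SE 0.29, adjusted p = 0.000471). The Klra and Klrc genes are families of close copies whose probes may cross-hybridize. Of the 10 NK-cell markers 5 were above background in CD8+ T cells (Eomes, Nkg7, Gzma, Klra9 and Itga2) and 2 in Treg (Nkg7 and Itga2). The other 5, among them Ncr1, Klrb1c and Tyrobp, were not above background in either subset. Ncr1 was at 6.94, 6.12 and 6.77 in CD8+ T cells, Klrb1c at 8.07, 7.04 and 5.99, and Tyrobp at 5.81, 6.14 and 6.12. Eomes and Nkg7 were called, and the summed level of the 10 markers was 13.90 to 14.04 in CD8+ T cells and 10.79 to 11.11 in Treg. The part of NK cells in these differences was not tested.

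Chemokine genes followed the same side, with 3 of 8 called higher in CD8+ T cells and 0 higher in Treg (median −0.67). Ccl5, a chemokine of memory CD8+ T cells, was at 10.59, 9.96 and 10.13 in CD8+ T cells and 4.81, 5.55 and 5.02 in Treg, at least 4.49-fold higher in CD8+ T cells (−5.10, SE 0.28, adjusted p = 0.000432). Xcl1, which attracts cross-presenting dendritic cells, was at 11.29, 11.75 and 11.28 against 7.82, 7.97 and 8.75 (9.57-fold, adjusted p = 0.00222). Its Treg mean of 8.18 was just above the background of 8.05. Ccl3 was the remaining call and was lost without any Treg array or CD8+ array 3 (adjusted p 0.0884 to 0.111).

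Genes of naive and quiescent T cells were called higher in CD8+ T cells for 9 of 20 members and higher in Treg for 0 (median −1), with 6 to 9 calls when single arrays were left out. Read by rank within arrays, with no fold minimum, 3 were called. Lef1, Actn1 and S1pr1, given next, were among those that lost their call by rank. Lef1, a factor of naive T cells, was at 14.75, 14.80 and 14.67 in CD8+ T cells and 12.80, 12.90 and 12.17 in Treg, 4.34-fold higher in CD8+ T cells (−2.12, SE 0.25, adjusted p = 0.00419). Actn1, an actin cross-linker listed with naive T-cell genes, was at 13.16, 12.33 and 13.07 against 7.66, 8.26 and 6.22 (at least 25.4-fold, adjusted p = 0.00250). S1pr1, the receptor by which T cells leave lymphoid organs, was at 12.63, 12.69 and 12.88 against 11.62, 11.29 and 11.22. Slfn2, a gene needed for T-cell quiescence in mice, was at 9.37, 9.98 and 9.68 against 6.96, 7.18 and 6.87. Ccr9, a gut-homing receptor, was at 8.23, 10.52 and 9.51 against 5.20, 5.28 and 5.45. Not every naive gene differed by a called amount. Ccr7, the lymph node homing receptor, had overlapping groups (14.48, 14.56 and 14.25 in CD8+ T cells and 14.42, 14.82 and 15.09 in Treg, adjusted p = 0.371).

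Homing and adhesion receptors went both ways, 4 of 25 called higher in each subset (median 0.33), with 1 to 5 in the Treg direction and 2 to 5 in the CD8+ direction as single arrays were left out. In the Treg direction there were 1 or 2 without any array but Treg array 3, and in the CD8+ direction 2 without CD8+ array 3. The even split depended on scaling, since as deposited there were 2 and 7, with a median of −0.24. Ccr4, a receptor of Treg and type 2 cells for skin chemokines, was at 8.12, 9.16 and 7.71 in Treg against 4.99, 5.65 and 5.62 in CD8+ T cells (adjusted p = 0.00747). Cd44, the hyaluronan receptor of antigen-experienced T cells, was at 11.04, 9.76 and 9.76 against 7.21, 8.20 and 7.77, and lost its call without CD8+ array 1 or 3 (adjusted p 0.0549 to 0.0567). The integrin chain Itga4 was higher in CD8+ T cells (13.64, 12.96 and 13.33 against 11.11, 11.45 and 9.83). Its call too was lost without CD8+ array 1 or 3 (adjusted p 0.0559 to 0.0560). Itgb1 and Itga6 were called higher in Treg, and these calls were lost without any array but Treg array 3.

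Inhibitory checkpoints were also divided, with 4 of 19 called higher in each subset (median 0.17) and 2 to 4 in each direction when single arrays were left out. There were 2 in the Treg direction without Treg array 1 or any CD8+ array, and 2 in the CD8+ direction without CD8+ array 1 or 3. As deposited the median was −0.55, with 3 and 4 calls. Beside Ctla4 and Tigit, Pdcd1, which encodes PD-1, was called higher in Treg at 8.63, 8.55 and 7.72 against 6.02, 6.28 and 6.47 (at least 1.38-fold, difference 2.04, SE 0.30, adjusted p = 0.00848). Vsir, which encodes the inhibitory molecule VISTA of resting T cells, was at 12.89, 11.48 and 11.03 in CD8+ T cells and below background in Treg at 7.49, 6.56 and 5.78. That was at least 13.4-fold higher in CD8+ T cells (−5.19, SE 0.59, adjusted p = 0.00383). Lair1, a collagen receptor, was at 7.91, 8.14 and 8.34 against 6.68, 6.91 and 6.59 (at least 1.05-fold). Lag3 and Havcr2 were not called.

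TNF-family genes gave 6 calls of 19 higher in Treg and 1 higher in CD8+ T cells (median 0.80), with 3 to 7 in the Treg direction as single arrays were left out, the fewest without CD8+ array 2 or 3. In the CD8+ direction there were 3 without Treg array 1 and 1 without any other, and as deposited 5 were called higher in Treg and 3 higher in CD8+ T cells. Beside Tnfrsf4 and Tnfrsf18, Tnfrsf9, the co-stimulatory receptor 4-1BB, was at 9.83, 9.79 and 8.14 in Treg against 7.41, 6.53 and 6.05 in CD8+ T cells. Tnfrsf9 was at least 2.67-fold higher in Treg (fitted difference 2.59, SE 0.55, adjusted p = 0.0272), and its call was lost without Treg array 1 or 2 or CD8+ array 2 or 3 (adjusted p 0.0714 to 0.0931). Tnfrsf1b, TNF receptor 2, was called at 7.86, 7.95 and 7.96 against 6.2, 6.23 and 6.46, with neither mean above background. The member called higher in CD8+ T cells was Ltb, lymphotoxin beta, at 13.62, 13.67 and 13.38 against 9.85, 10.64 and 8.70 in Treg (14.2-fold, adjusted p = 0.00472).

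Genes of T-cell receptor signalling shared by both subsets gave 2 calls higher in Treg and 3 higher in CD8+ T cells of 15, and these counts ran from 0 to 2 and from 1 to 4 with single arrays left out. They moved by over 1.5 times without any CD8+ array in both directions, and without Treg array 1 (Treg direction) or 2 (CD8+ direction), and were 0 and 6 as deposited. Lat, the adaptor of the receptor complex, was at 15.90, 15.90 and 15.62 in CD8+ T cells and 13.19, 13.48 and 12.52 in Treg (6.70-fold, −2.74, adjusted p = 0.00304). Cd3e, a chain of the receptor itself, was at 14.24, 14.40 and 14.40 against 13.62, 13.96 and 12.56 and was not called (adjusted p = 0.129). Trat1, which stabilizes the receptor complex, was listed with CD4 lineage genes, of which 4 of 10 were called higher in Treg, with 2 or 3 when single arrays were left out and the fewest without Treg array 1 or any CD8+ array. It was at 13.62, 13.89 and 14.58 in Treg against 11.03, 11.09 and 11.30 in CD8+ T cells (7.42-fold, adjusted p = 0.00262). Of 25 genes induced early by the receptor 3 were called, all higher in Treg (median 0.25). Jun, a subunit of AP-1, was at 8.75, 9.49 and 9.61 against 5.37, 4.97 and 5.44, at least 2.73-fold higher in Treg (4.02, SE 0.29, adjusted p = 0.000925). The other calls were Dusp5, a phosphatase that limits ERK (11.12, 11.26 and 10.95 against 9.31, 9.29 and 8.42), and Cd69, an activation marker that lost its call without any array but Treg array 3 (adjusted p 0.0661 to 0.113).

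Interferon-response genes were called in both directions, 4 of 35 higher in Treg and 6 higher in CD8+ T cells (median −0.10), and 2 to 3 and 2 to 6 when single arrays were left out. Without any 1 CD8+ array there were 2 in the Treg direction and 2 or 3 in the CD8+ direction, and as deposited 2 and 11 (median −0.67). Gbp3 is given above, and Gbp7, another guanylate-binding protein, was at 12.40, 12.66 and 12.56 against 10.49, 10.83 and 10.30 (3.99-fold, adjusted p = 0.00355). Gbp2 and Gbp4, looked up after their values were seen, were not called (differences −0.68 and −0.78). Tgtp2, an interferon-induced GTPase, was at 15.13, 14.72 and 15.10 in CD8+ T cells and 13.13, 13.14 and 11.27 in Treg (adjusted p 0.0260 with all arrays and 0.0715 to 0.0853 without any CD8+ array). The 2 members with the largest differences on that side were Ly6c2 and Ly6c1, near-identical surface proteins whose probe sets may share signal. Ly6c1 was at 16.92, 16.62 and 17.03 against 12.61, 11.03 and 11.35. Isg15, Mx1 and Rsad2, core interferon-induced genes looked up after their values were seen, were not above background in either subset and were not called. Among genes of antigen processing, where 2 of 14 were called higher in CD8+ T cells, the immunoproteasome subunits Psmb9 (12.41, 12.33 and 12.42 against 10.97, 11.62 and 10.18) and Psmb10 lost their calls without any CD8+ array, so that 0 to 2 remained. As deposited 6 were called on the CD8+ side.

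Cytokine receptors outside the IL2 axis gave 2 calls of 24 higher in Treg and 3 higher in CD8+ T cells (1 to 3 in each direction with single arrays left out, the fewest without CD8+ arrays, and 1 and 7 as deposited). Il27ra, a receptor chain for IL27, was at 10.57, 10.58 and 10.20 in CD8+ T cells and 7.77, 8.19 and 7.90 in Treg (at least 4.88-fold, adjusted p = 0.00187). Il4ra, the IL4 receptor chain, was at 10.27, 10.25 and 10.07 in Treg against 9.09, 9.07 and 9.27, a call lost without any CD8+ array (adjusted p 0.0587 to 0.0698). As deposited the Il4ra difference was 0.05 (adjusted p = 0.873), so it depended on scaling.

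Metabolic and growth genes had members called in both directions. In glycolysis and glucose uptake 4 of 22 were called higher in Treg and 2 higher in CD8+ T cells (median 0.00), and 2 to 4 and 1 to 2 when single arrays were left out, with 2 in the Treg direction without Treg array 2 or CD8+ array 1 or 2 and 1 in the CD8+ direction without any array but Treg array 1. As deposited they were 2 and 4, with a median of −0.57. Hif1a, the hypoxia factor, was at 13.45, 13.40 and 13.45 in Treg against 11.08, 9.85 and 11.10 in CD8+ T cells (6.74-fold, adjusted p = 0.00589). Slc2a1, the glucose transporter GLUT1, was at 15.69, 15.61 and 15.45 against 14.26, 14.13 and 13.43 (3.12-fold, adjusted p = 0.0124). Hk1, a hexokinase, went the other way at 10.03, 10.00 and 8.78 in CD8+ T cells and 6.23, 6.65 and 5.20 in Treg. Cell-cycle genes gave 4 calls higher in Treg and 3 higher in CD8+ T cells of 27, and 1 to 5 and 1 to 2 when single arrays were left out, the fewest without CD8+ array 2 or 3 (Treg direction) and 1 or 3 (CD8+ direction). As deposited they were 2 and 8, with a median of −0.48 in place of 0.30. Mki67, a proliferation marker, was at 10.29, 9.80 and 10.32 in Treg against 8.72, 8.41 and 8.82, while Ccne1, cyclin E, was at 13.96, 13.93 and 13.39 in CD8+ T cells against 9.68, 11.29 and 11.02. Oxidative phosphorylation had 6 of 39 called higher in Treg and 5 higher in CD8+ T cells, 3 to 5 and 1 to 4 with single arrays left out (fewest without CD8+ array 1). The counts were 6 and 10 as deposited (median −0.55) and 14 and 3 with centring above background (median 0.25). Of 30 cytosolic ribosomal protein genes 2 were called higher in CD8+ T cells (0 or 1 with any array left out) and 0 higher in Treg, and this list depended on scaling, since with the same centring 13 were called higher in Treg and 1 higher in CD8+ T cells. Among 24 apoptosis regulators Bcl2a1d, a BCL2-family survival gene of a cluster of close copies that probes may not tell apart, was at 16.27, 16.09 and 16.66 in Treg against 13.28, 13.45 and 13.56 in CD8+ T cells (7.51-fold, adjusted p = 0.00116).

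The same subset difference was measured under LME-sEVs on 6 other arrays, quantile normalized by themselves. There 2385 probe sets (10.7%) were called, 1342 were called in both treatments in the same direction and 0 in opposite directions. The shared probe sets were 53.2% of the HCME-sEV calls and 56.3% of the LME-sEV calls. Of the 2523 calls under HCME-sEVs 2455 (97.3%) had the same sign under LME-sEVs. Of the 15 genes highest in Treg 14 were called again, the exception being Ppa1 (2.20, adjusted p = 0.227), and all 15 genes highest in CD8+ T cells were called again. Cish differed by 8.73 and Klrd1 by −8.62 in the second set of arrays. Treg surface and suppressive genes gave 22 calls of 27 and NK receptors 10 of 21, in the same directions as before.

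**Figure D4:**
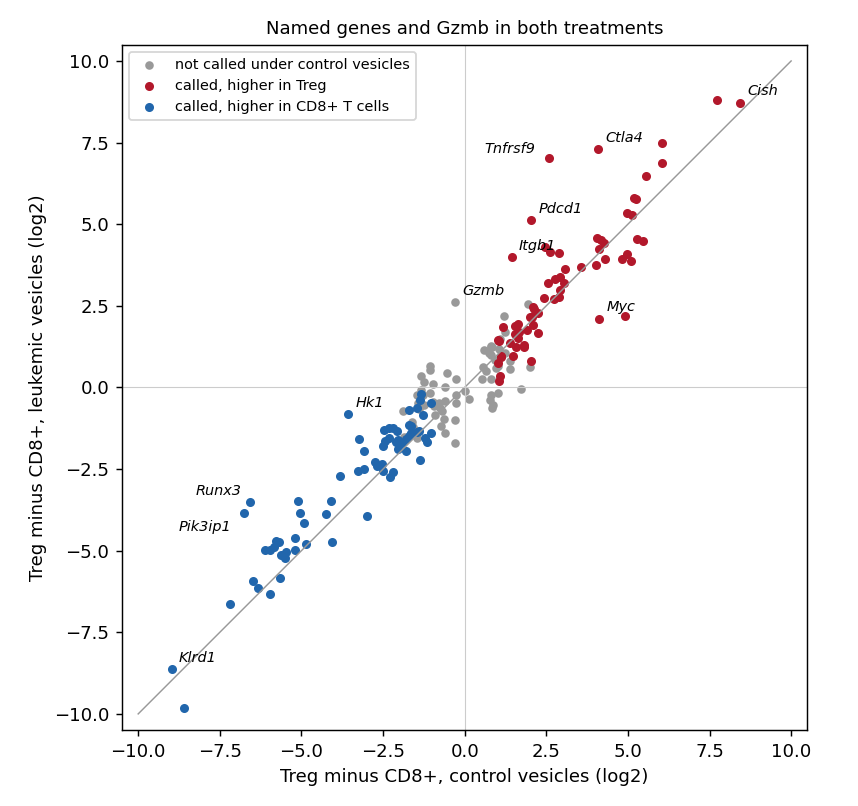
Log2 difference between Treg and CD8+ T cells under HCME-sEVs (x axis) and under LME-sEVs (y axis) for the 200 named genes and Gzmb, coloured by the call under HCME-sEVs; the line marks equal values. Points lie along the line, with Tnfrsf9 (2.59 and 7.02) and Pdcd1 (2.04 and 5.12) above it, and no probe set passed the test of the difference between treatments.

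Whether the subset difference itself changed with the vesicles was tested as an interaction over the 12 arrays. After adjustment 0 of 22206 probe sets (0%) passed, and 1300 had an unadjusted p below 0.05 in limma. The values of several genes described above are given side by side. Of the genes looked at singly, Tnfrsf9, Pdcd1 and Pik3ip1 had the smallest unadjusted p of the interaction in limma, so they are not typical of those genes. In limma Tnfrsf9 differed by 2.59 under HCME-sEVs against 7.02 under LME-sEVs (unadjusted p of the interaction 6.62e-05, adjusted p = 0.407), and Pdcd1 by 2.04 and 5.12 (unadjusted p = 9.46e-05, adjusted p = 0.407). Pik3ip1, on the CD8+ side, differed by −6.77 and −3.83 (unadjusted p = 0.000605, adjusted p = 0.537). For Gzmb the Treg arrays under LME-sEVs were at 11.33, 11.05 and 11.38 and the CD8+ arrays at 7.80, 8.13 and 9.97, a difference of 2.62 (adjusted p = 0.0274) against −0.29 under HCME-sEVs. The interaction of Gzmb had an unadjusted p of 0.00322 and an adjusted p of 0.677, so the change in its difference did not pass the test.

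CD4+ Tconv under HCME-sEVs were set beside both subsets, on a scale made by quantile normalization of the 9 control arrays, as a description with no test. The titles number the CD4+ Tconv arrays 2214 to 2216 and the other 6 from 2117 to 2126. The deposited upper deciles of the CD4+ Tconv arrays were 10.32 to 10.51. A difference tied to these numbers cannot be told apart from the subset and was not tested. CD4+ Tconv shared the CD4 lineage with Treg, and on several of the genes above their level was close to or below that of CD8+ T cells. For Cish the CD4+ Tconv mean was 5.80 (14.15 in Treg and 6.09 in CD8+ T cells), for Lrrc32 4.52 (11.66 and 4.34) and for Ikzf2 7.33 (11.48 and 7.78). Of the 15 genes highest in Treg, CD4+ Tconv were nearer CD8+ T cells for 10, nearer Treg for 3 (Cd200r1, Ipw and S100a4) and below both for 2. On the CD8+ side they were above both subsets for 5, nearer CD8+ T cells for 4, nearer Treg for 4 and below both for 2. Among the genes high in both CD4+ Tconv and CD8+ T cells were Klrd1 (14.98, with 7.92 in Treg and 16.91 in CD8+ T cells), Pik3ip1 (14.90, with 8.23 and 14.81) and Il7r (16.63, with 10.35 and 16.33). Genes low in both CD4+ Tconv and Treg included Cd8b1 (9.90, with 10.01 in Treg and 17.55 in CD8+ T cells), Eomes (6.18, with 6.28 and 11.37), Ccl5 (5.76, with 5.27 and 10.03) and Runx3 (9.02, with 7.85 and 14.22). The 3 CD4+ Tconv arrays lay between 14.93 and 15.02 for Klrd1. For Klrc1, whose product pairs with that of Klrd1, CD4+ Tconv were at 6.29, with 5.29 in Treg and 9.12 in CD8+ T cells.

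**Figure D5:**
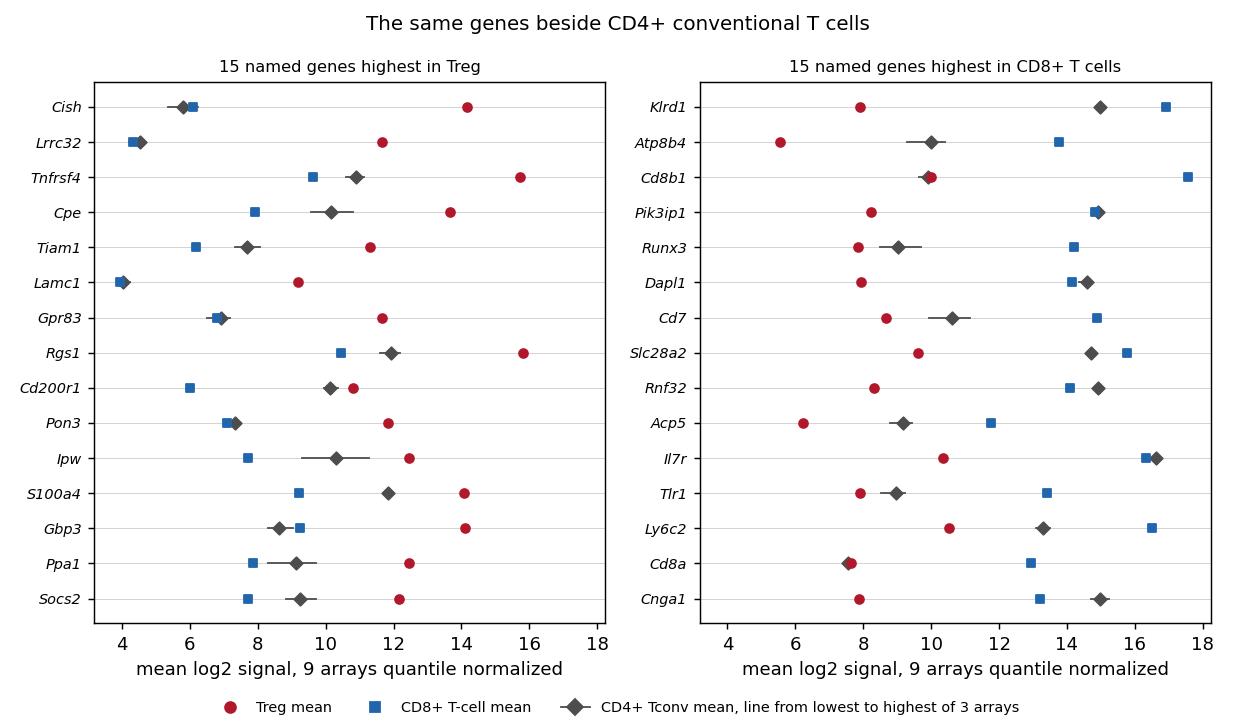
Mean log2 signal (x axis, 9 control arrays quantile normalized) of the 15 genes with the largest differences in each direction, for Treg (circles), CD8+ T cells (squares) and CD4+ Tconv (diamonds, with a line from the lowest to the highest of 3 arrays). CD4+ Tconv lie close to CD8+ T cells for Cish (5.80 against 6.09) and Il7r (16.63 against 16.33) and close to Treg for Cd8b1 (9.90 against 10.01).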

How the data were processed

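Clariom S mouse arrays gave log2 values deposited by the authors, made with Transcriptome Analysis Console. How they were normalized, and the genome build, are not given in the sources used here. These 6 arrays were quantile normalized and fitted with limma 3.58.1 in R 4.3.3 on 22206 probe sets. A call needed more than 1 log2 unit of difference and an adjusted p below 0.05. Of all probe sets, 19572 carried 1 gene symbol, 0 several and 2634 none. For a gene with several probe sets the brightest was used.

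The members and gene lists were chosen with earlier results of these data known. Named genes were first the 15 largest differences each way among called probe sets. Their groups did not overlap, the higher group was above background, and predicted genes and the background receptors were left out. Then came up to 8 members per list (called first, then by size), cell type markers above background and sort markers. Others are marked where they appear. Alternatives covered scaling, filters, tests, samples and single arrays. The fit was tested on simulated data. Promoter windows were RefSeq, GRCm38.p6. The number of arrays limits the precision.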

Additional observations from a re-analysis of the deposited data

Results flagged for a closer look

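The 200 named genes and the further genes looked at singly were searched for a turn between treatments. A pair, not described above, had all Treg arrays below the CD8+ arrays under HCME-sEVs and above them under LME-sEVs. Neither gene was called in either treatment (limma adjusted p 0.180 and 0.112 for Srgn, 0.216 and 0.153 for Rpl11). Under HCME-sEVs alone the Treg arrays all lay below the CD8+ arrays in 17.3% of all probe sets. How many of all probe sets turned in this way was not counted. Srgn, which encodes the granule proteoglycan serglycin, was at 13.49, 13.18 and 11.78 in Treg against 13.83, 13.50 and 14.28 in CD8+ T cells under HCME-sEVs. Its difference was −1.06 there and 0.67 under LME-sEVs, an interaction of −1.72 that did not pass the adjustment (unadjusted p = 0.0114, adjusted p = 0.805, limma). Rpl11, a ribosomal protein gene, was at 14.92, 15.09 and 14.27 in Treg against 15.46, 15.30 and 15.16 in CD8+ T cells under HCME-sEVs. The difference was −0.55 and then 0.45, an interaction of −1 that also missed (unadjusted p = 0.0110, adjusted p = 0.805).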

How the results depend on the processing

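The number of calls between Treg and CD8+ T cells, 2523, moved to 4468 on the values as deposited, 875 when the methods' t-test was adjusted by Benjamini-Hochberg (3041 unadjusted), 34 with Welch's test after the same adjustment and 926 with a log2 difference above 2. Leaving out single arrays gave 1159 to 2539. The other alternatives gave 1715 to 3581. After centring on each median above background 69.5% of 3581 calls were higher in Treg, against 11% as deposited and 48.1% here, and the median difference of all probe sets was 0.34, −0.45 and 0.06. Under LME-sEVs 2385 calls became 4811 as deposited, 10.4% of them higher in Treg, and 1541 to 2011 with single arrays left out. The interaction gave 0 calls under all 14 alternatives, single arrays left out included (0 to 0), with 1055 to 1664 probe sets at an unadjusted p below 0.05. Replicate numbers were shared between the groups, and deviations of same-numbered arrays correlated between −0.02 and 0. With 3 arrays per group and no animals or cultures assigned to replicates, these values cannot show whether the numbers pair the arrays. With the number as a replicate block 1715 probe sets were called under HCME-sEVs, 1854 under LME-sEVs and 0 in the interaction. Of 131 called genes looked at singly, 78 kept their call without each array in turn. On the values as deposited 19 of the 131 lost it, Il2ra, Mki67 and Il4ra among them. Of these 131, 53 lost it when read by rank within arrays (10 of the 30 genes with the largest differences, Runx3, Cd7, Rgs1, Pon3 and Ppa1 among them), 64 with the adjusted methods' t-test, 125 with Welch's and 26 with the replicate block. Signs turned for St8sia6 as deposited (−0.01), Rpl8 with centring (0.05), Gzmb without CD8+ array 3 (0.18, and −0.53 without array 2), and Il2rb with cyclic loess (0.06), array weights (1.19) and without Treg array 3 (1.92) or CD8+ array 1 (0.12) or 2 (0.25), while it was −1.26 without Treg array 1, and the cause was not tested. Probe sets at background limit folds to bounds.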
